A study of Mus musculus with 12 samples.

Results

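Colonic epithelial preparations from mice carry a small share of lymphocyte RNA, and 10 transcripts of intraepithelial T lymphocytes were followed through it: Cd3e, Cd3g, Cd8a, Trdc, Gzma, Gzmb, Itgae, Cd7, Ccl5 and Rgs1. They were taken by symbol from the 46517 gene identifiers of the count files, and all 10 were found. The list was drawn up with results of these data known, and Rgs1 was chosen by its measured level, which had been seen to be higher in knockout than in wild-type samples. For that reason the differences of the 10 genes between genotypes are descriptions and carry no test, and Rgs1 is given no test in any comparison. Genes of other lists were tested between genotypes, and those lists were also drawn up with earlier results known.

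The samples were 12 RNA libraries from epithelial cells of the colon of C57BL/6 mice aged 7 to 9 weeks, in 4 groups of 3 biological replicates. The groups were wild-type mice left untreated, wild-type mice given dextran sulfate sodium (DSS) for 48 h, Nfkb2-/- mice left untreated and Nfkb2-/- mice given DSS for 48 h. The dose of DSS was not given in the sources used here. DSS is a sulfated polysaccharide that injures the colonic lining and is widely used to induce colitis, and Nfkb2 encodes p100, the precursor of the NF-kappaB subunit p52. The genotype label names no Cre driver, so it gives the knockout for the mouse and not for a cell type, and lymphocytes in these mice carried the same genotype as the epithelium. Epithelium was loosened from the colon with EDTA, and about 90% of the cells were CD45.2-EpCAM+ by flow cytometry, per the labels. The remaining cells were not removed.

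Intraepithelial lymphocytes are T cells that sit between the epithelial cells of the gut. Many carry CD8 and the integrin CD103, encoded by Itgae, which binds E-cadherin on the epithelial cell, and part of them carry a gamma-delta T cell receptor. They store granzymes and are known for fast cytotoxic and cytokine responses. Several of the 10 genes are also used by natural killer cells and innate lymphoid cells (Gzma, Gzmb, Ccl5, Cd7), and Rgs1, a regulator that shortens chemokine receptor signalling through G proteins, is also used by B cells and myeloid cells.

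RefSeq promoter windows (GRCm38.p6, the 250 bases before the start of transcription) were matched for 5 of the 10 genes, Cd3e, Cd3g, Cd8a, Gzma and Gzmb. The 3 windows below are shown because Cd3e was the gene that passed the test for DSS and because Gzma and Gzmb, both granzymes, differed in their order over the 4 groups. Each runs 5′ to 3′ on the gene's strand, which is the minus strand for all 3, and capitals mark matches to 8 searched motifs.
Cd3e, chr9:45009612-45009861: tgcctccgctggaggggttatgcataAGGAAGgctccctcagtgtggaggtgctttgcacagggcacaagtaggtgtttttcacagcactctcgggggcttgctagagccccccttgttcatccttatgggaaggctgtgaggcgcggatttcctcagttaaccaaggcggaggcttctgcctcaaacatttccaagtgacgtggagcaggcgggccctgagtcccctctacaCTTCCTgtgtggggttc
Gzma, chr13:113100982-113101231: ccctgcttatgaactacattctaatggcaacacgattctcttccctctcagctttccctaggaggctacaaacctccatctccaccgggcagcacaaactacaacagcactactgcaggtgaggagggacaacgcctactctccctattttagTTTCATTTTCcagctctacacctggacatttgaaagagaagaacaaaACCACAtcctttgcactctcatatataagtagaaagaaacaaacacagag
Gzmb, chr14:56262335-56262584: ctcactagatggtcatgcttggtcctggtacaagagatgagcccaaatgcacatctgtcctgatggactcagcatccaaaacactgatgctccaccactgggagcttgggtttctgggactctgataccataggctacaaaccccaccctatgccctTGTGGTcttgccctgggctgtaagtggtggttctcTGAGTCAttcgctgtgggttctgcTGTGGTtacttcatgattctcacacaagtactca
Both strands were searched for RUNX (TGTGGT, in 14.0% of 32851 promoter windows of this length), ETS (AGGAAG, 29.5%), AP-1 (TGANTCA, 6.75%), CRE (TGACGTCA, 1.55%), T-box (TCACACCT, 1.12%), GAS (TTCNNNGAA, 7.02%), ISRE (by its name, 2.98%) and kappaB (by its name, 7.25%). The Cd3e window held 2 ETS matches, the Gzma window 1 RUNX and 1 ISRE match, and the Gzmb window 2 RUNX matches and 1 AP-1 match. The windows of Cd3g and Cd8a held none of the 8 motifs, and the kappaB letters were in none of the 5 windows. A match is a stretch of letters and not a measured binding site.

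Library totals ran from 5595909 to 8117740 counts. The epithelial identity of the preparation was plain in every library: Epcam stood between 2300 and 3261 CPM (counts relative to library size, scaled by TMM), whereas Ptprc, which encodes the pan-leukocyte protein CD45, stood between 6.95 and 47.2. Nfkb2 itself stood at 30.8 to 46.1 CPM in the 6 wild-type libraries and at 11.7 to 19.6 CPM in the 6 libraries labelled Nfkb2-/-, with no overlap. The library numbers in the labels run through all wild-type samples before the knockouts, so library order and genotype cannot be told apart. In bulk RNA, fewer cells of a type and less RNA per cell cannot be told apart either. The 10 genes together gave 92 to 221 counts a library in untreated wild type, 225 to 418 in wild type given DSS, 703 to 925 in untreated knockouts and 635 to 1178 in knockouts given DSS, so each value rests on few reads.

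The T cell receptor transcripts were scarcest in untreated wild type. Cd3e (chr9:44998740-45009627) encodes the CD3 epsilon chain, a signalling subunit that every T cell receptor needs. Its level was 0.583, 0.656 and 0.309 CPM in the untreated wild-type libraries and 2.28, 1.73 and 2.61 CPM in those given DSS. In the knockouts it was 2.56, 4.15 and 3.45 CPM untreated and 4.07, 4.60 and 8.18 CPM with DSS. The untreated wild-type libraries, with 2 to 4 counts each, lay below all 9 others. Cd3e overlaps an antisense gene over 135 exonic bases, and reads of the pair cannot be told apart without strand.

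Cd3g (chr9:44969572-44980431) encodes the CD3 gamma chain of the same complex and lies beside Cd3e. It stood at 0.729, 0.820 and 0 CPM in untreated wild type and at 1.37, 2.27 and 1.14 CPM with DSS. The 0 was 0 of 6323781 counts, which allows up to 0.474 CPM. The knockouts had 1.75, 3.91 and 2.38 CPM untreated and 3.00, 1.48 and 4.71 CPM with DSS. Only untreated wild type was apart from the other groups, which overlapped one another.

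Cd8a (chr6:71373427-71379173) encodes the CD8 alpha chain, a co-receptor that intraepithelial lymphocytes often carry as an alpha-alpha pair. Cd8a was 3.35, 4.92 and 1.39 CPM in untreated wild type and 3.80, 6.40 and 2.28 CPM with DSS. It was 3.90, 7.69 and 5.82 CPM in untreated knockouts and 6.36, 7.56 and 12.5 CPM with DSS. All neighbouring groups in the order of the Cd8a means overlapped. The ends did not, with untreated wild type at most at 4.92 CPM and DSS-treated knockouts at least at 6.36 CPM. Its partner Cd8b1 was at 0 to 14 counts in the 12 libraries and was too low to be tested.

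Trdc (chr14:54142851-54148868) encodes the constant part of the delta chain, which marks gamma-delta T cells, and it had 37 counts in all 12 libraries together. The counts were 0, 0 and 3 in untreated wild type, 2, 3 and 0 with DSS, 3, 3 and 7 in untreated knockouts and 6, 4 and 6 in knockouts with DSS. The 3 libraries at 0 allow up to 0.387, 0.462 and 0.496 CPM. Trdc did not pass the filter on low counts, so no fold change is given. It also overlaps Trdv5 and an antisense gene, and 5.92% of its 50-base stretches also occur elsewhere among annotated transcripts, so even these counts are uncertain.

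**Figure D1:**
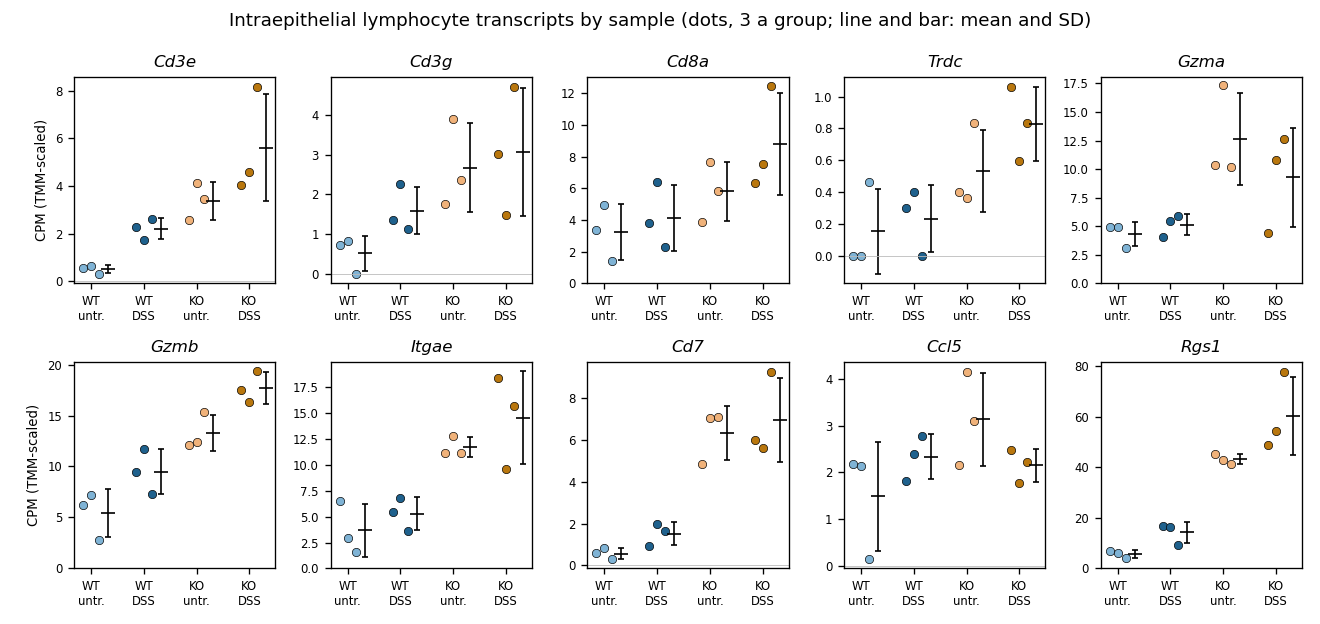
Level of the 10 intraepithelial lymphocyte transcripts in each library (y axis, CPM scaled by TMM, a separate scale for each gene) in the 4 groups (x axis), with dots for libraries and a line and bar for the mean and SD of 3. Untreated wild type had the lowest mean for 10 of 10 genes, and Rgs1 reached 41.4 CPM or more in every knockout library against at most 16.7 CPM in wild type.

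The granzyme genes encode serine proteases that cytotoxic lymphocytes deliver into target cells. Gzma (chr13:113093825-113100981) was 4.96, 4.92 and 3.09 CPM in untreated wild type and 4.10, 5.47 and 5.87 CPM with DSS. It was 10.4, 17.3 and 10.2 CPM in untreated knockouts and 4.42, 10.8 and 12.6 CPM with DSS. The first knockout library given DSS fell within the wild-type range, and Gzma was 1 of 2 genes (with Ccl5) whose mean was higher in untreated than in DSS-treated knockouts.

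Gzmb (chr14:56258838-56262260) kept its 4 groups apart. Its level was 6.27, 7.22 and 2.78 CPM in untreated wild type, 9.41, 11.7 and 7.34 CPM in wild type with DSS, 12.1, 12.4 and 15.3 CPM in untreated knockouts and 17.5, 16.3 and 19.4 CPM in knockouts with DSS. No library of one group overlapped another group, although the gap between 7.22 and 7.34 CPM was narrow.

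Itgae (chr11:73090583-73147446), the alpha chain of CD103, stood at 6.56, 2.95 and 1.54 CPM in untreated wild type and 5.47, 6.80 and 3.59 CPM with DSS. In knockouts it was 11.2, 12.8 and 11.2 CPM untreated and 18.4, 9.64 and 15.7 CPM with DSS. All 6 knockout libraries lay above all 6 wild-type ones, and within each genotype the untreated and DSS libraries overlapped.

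Ccl5 (chr11:83525778-83530518), a chemokine stored by memory and resident CD8 T cells, went its own way. It was 2.19, 2.13 and 0.154 CPM in untreated wild type and 1.82, 2.40 and 2.77 CPM with DSS, against 2.15, 4.15 and 3.09 CPM in untreated knockouts and 2.48, 1.78 and 2.22 CPM in knockouts with DSS. The 4 groups overlapped throughout.

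Cd7 (chr11:121036747-121039418), an immunoglobulin-family surface protein of T and natural killer cells, was 0.583, 0.820 and 0.309 CPM in untreated wild type and 0.911, 2.00 and 1.63 CPM with DSS. It was 4.85, 7.08 and 7.13 CPM in untreated knockouts and 6.01, 5.63 and 9.28 CPM with DSS. The lowest knockout library was above the highest wild-type one. Cd7 overlaps an antisense gene over 122 exonic bases, so part of its reads could belong to that gene.

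Rgs1 (chr1:144242296-144249242) was the most counted of the 10, with 2645 counts in all. It was 7.00, 5.91 and 4.17 CPM in untreated wild type, 16.7, 16.5 and 9.46 CPM in wild type with DSS, 45.4, 43.0 and 41.4 CPM in untreated knockouts and 49.0, 54.3 and 77.9 CPM in knockouts with DSS. As with Gzmb, no 2 groups overlapped. The separation of the genotypes is what chose the gene, and it is given as a description. Per kilobase of the longest coding transcript, Rgs1 (11.2 CPM per kb) and Gzma (12.7 CPM per kb) had the highest levels in untreated knockouts, and Gzma (4.34 CPM per kb) and Gzmb (3.78 CPM per kb) in untreated wild type.

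The order of the means was untreated wild type, wild type with DSS, untreated knockout and knockout with DSS for 8 of 10 genes, Gzma and Ccl5 being the exceptions. Cd7, Gzmb, Itgae and Rgs1 were the 4 genes with every knockout library above every wild-type library. Single libraries moved many of the genes together. Untreated wild-type library 3 was the lowest of its group for 9 of 10 genes (Trdc was the exception), and DSS-treated knockout library 3 was the highest of its group for 7 of 10.

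DSS was tested within each genotype on the 8 genes that passed the filter and were not the reason for the choice, by edgeR's quasi-likelihood test over 12522 genes with Benjamini-Hochberg adjustment. In wild type 1 of 8 passed an adjusted p of 0.05, where 6.3% of all genes did so in either direction and 2.8% as higher. Cd3e rose by 2.06 on the log2 scale (SE 0.54, adjusted p = 0.0355), and all 3 libraries given DSS were above all 3 untreated ones. The call rested on 10 counts in untreated wild type. It was kept in 8 of 20 other settings, with adjusted p from 0.0219 to 0.114, and it was lost without any 1 of the 6 wild-type libraries and without untreated knockout library 2 or 3.

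Of the 7 other tested genes in wild type, Cd3g had a log2 fold change of 1.60 (SE 0.81, adjusted p = 0.332), Cd7 one of 1.39 (SE 0.53, adjusted p = 0.171) and Gzmb one of 0.81 (SE 0.32, adjusted p = 0.182). The 4 with the smallest values were Ccl5 at 0.64, Itgae at 0.52, Cd8a at 0.38 and Gzma at 0.25, with adjusted p from 0.647 to 0.839. Cd3e, Gzmb and Cd7 had an unadjusted p under 0.05, as did 17.6% of all genes. Rgs1, not tested, had a fitted log2 fold change of 1.32 (SE 0.27). Among the 9 genes kept by the filter, 5 had DSS libraries that lay above the untreated ones without overlap (Cd3e, Cd3g, Gzmb, Cd7 and Rgs1), and 10.7% of all genes did so. All 9 had a fitted value above 0, as 50.9% of all genes did, and their median was 0.81, against 0.01 over all genes.

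In the knockouts the DSS change was smaller or of the other sign for 8 of the 9 genes in the fitted values, and none of the 8 tested genes passed, by edgeR or by DESeq2, nor had any an unadjusted p under 0.05. Of all genes, 3.92% passed, 1.88% as higher. Cd3e had a log2 fold change of 0.73 (SE 0.44, adjusted p = 0.463) and Cd8a of 0.60 (SE 0.47, adjusted p = 0.609), and Ccl5 of -0.54 (SE 0.63) and Gzma of -0.44 (SE 0.37) had negative values. Rgs1 had a fitted value of 0.48 (SE 0.23). Gzmb and Rgs1 were the 2 of 9 genes whose DSS libraries all lay above the untreated ones, where 12% of all genes did so. Of the 9, 7 had a value above 0, as 51.9% of all genes did, and the median was 0.31.

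Whether DSS acted differently in the 2 genotypes was tested by the interaction, the DSS change in knockouts minus that in wild type. No gene of the 8 passed by edgeR or DESeq2 or had an unadjusted p under 0.05, and 1.7% of all genes passed. The log2 values were -1.41 for Cd3g (SE 1.04, adjusted p = 0.739), -1.33 for Cd3e (SE 0.69, adjusted p = 0.538), -1.26 for Cd7 (SE 0.66, adjusted p = 0.546) and -1.18 for Ccl5 (SE 0.91, adjusted p = 0.756). Standard errors of this size leave differences of that size undetectable at 3 libraries a group, so the Cd3e change in wild type was not shown to be absent in knockouts. Cd8a, at 0.22 (SE 0.69), was the 1 of 9 genes with a value above 0, where 49.5% of all genes had one.

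**Figure D2:**
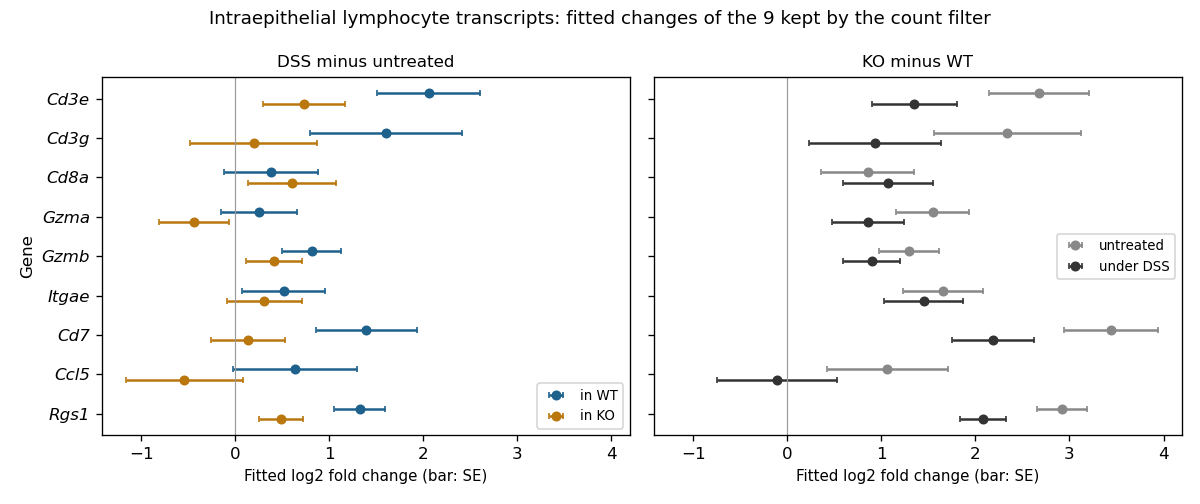
Fitted log2 fold change (x axis) with its standard error for the 9 transcripts that passed the count filter (y axis), for DSS against untreated in each genotype on the left and for knockout against wild type in each condition on the right. On the left, Cd3e in wild type, at 2.06, has the highest value, and on the right all values but that of Ccl5 under DSS, at -0.11, lie above 0.

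Between genotypes, untreated knockouts had higher fitted levels of all 9 genes kept, as a description and with no test. Cd7 had a log2 difference of 3.44 (SE 0.50), Rgs1 2.92 (SE 0.27), Cd3e 2.68 (SE 0.53) and Cd3g 2.34 (SE 0.78). Itgae at 1.66, Gzma at 1.55, Gzmb at 1.29, Ccl5 at 1.06 and Cd8a at 0.85 followed. Knockout and wild-type libraries did not overlap for 7 of the 9, all but Cd8a and Ccl5, where 9.81% of all genes were higher without overlap. Of all genes 49.8% had a fitted value above 0. The median of the 9 was 1.66, against 0.00 over all genes. These counts and the median include Rgs1, which was chosen by this difference, and without it the median was 1.60. Cd3g and Cd7 passed the filter only with the knockout libraries included.

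Under DSS 8 of the 9 genes had a fitted value above 0 between genotypes, as 50.4% of all genes did. Cd7 had 2.19 (SE 0.44), Rgs1 2.08 (SE 0.25), Itgae 1.45 (SE 0.42), Cd3e 1.35 (SE 0.45) and Cd8a 1.07 (SE 0.48), and Ccl5 had -0.11 (SE 0.64). The libraries did not overlap for 5 of 9 (Cd3e, Gzmb, Itgae, Cd7 and Rgs1), where 11.7% of all genes were higher without overlap, and the median was 1.07. Rgs1 is again included, and without it the median was 1.00. The 4 comparisons share their groups in pairs, so their values are not independent of one another.

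Set against Ptprc, the genes did not all stand alike. Cd3e gave 0.0444 to 0.0714 counts per Ptprc count in untreated wild type and 0.116 to 0.169 with DSS, with no overlap, and 0.064 to 0.189 in untreated and 0.0861 to 0.214 in DSS-treated knockouts. Rgs1 gave 0.612 ± 0.027 counts per Ptprc count in untreated wild type (SD, n = 3), 0.987 ± 0.332 in wild type with DSS, 1.67 ± 0.471 in untreated knockouts and 1.65 ± 0.537 in knockouts with DSS. The ranges of the knockouts (1.04 to 2.04) and of wild type with DSS (0.611 to 1.24) overlapped. Cd7 gave 0.0610 ± 0.0246, 0.102 ± 0.0334, 0.259 ± 0.119 and 0.188 ± 0.0583 in the same order, and its range in wild type with DSS (up to 0.134) overlapped those of the knockouts (from 0.121). Cd8a gave 0.340 ± 0.175, 0.286 ± 0.141, 0.240 ± 0.129 and 0.241 ± 0.0972, and these ranges overlapped in every group. Itgae (means of 0.364 to 0.461) and Gzmb (0.481 to 0.652) overlapped likewise. Ccl5 was at 0.146 ± 0.110 in untreated wild type and at 0.0573 ± 0.00459 in DSS-treated knockouts. Within the 10 genes, Rgs1 made up 23.5% of the counts in untreated wild type, 30.5% with DSS, 42.3% in untreated knockouts and 46.5% in knockouts with DSS.

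**Figure D3:**
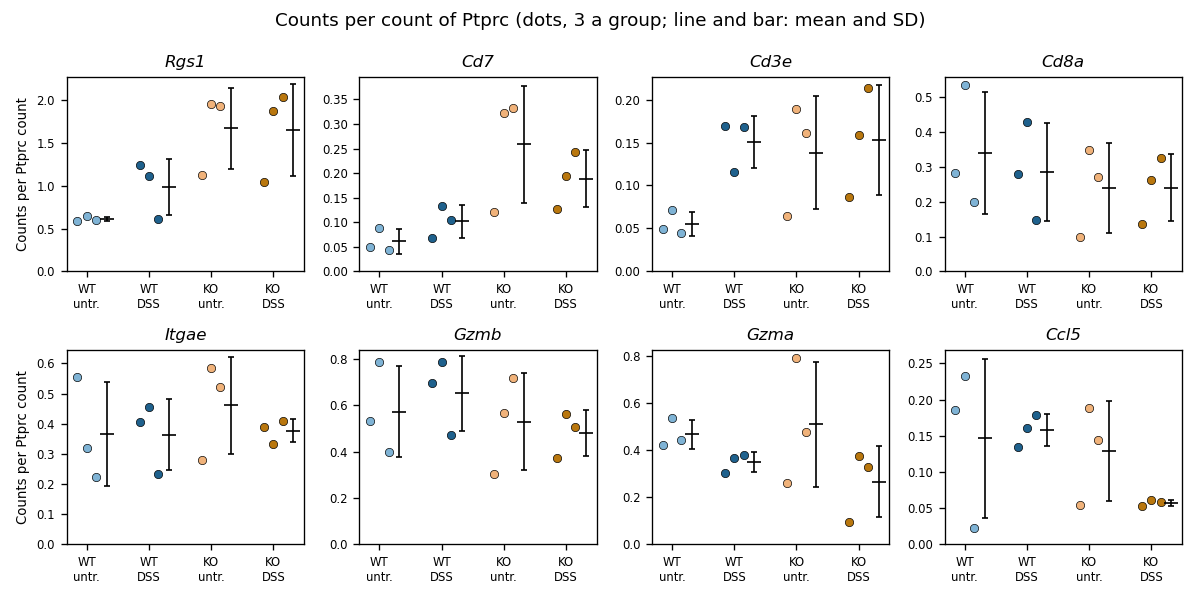
Counts of 8 transcripts per count of Ptprc in the same library (y axis, a separate scale for each gene) in the 4 groups (x axis), with dots for libraries and a line and bar for the mean and SD of 3. Rgs1 ranges from 0.593 to 0.643 in untreated wild type and from 1.04 to 2.04 in knockouts given DSS, while the ranges of Cd8a overlap in all groups.

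Few other genes of the T cell receptor and its signalling passed an adjusted p of 0.05 by edgeR. Of 24 listed genes 21 were in the files and 15 passed the filter. In wild type DSS raised 2 of 15 by edgeR, Cd28 (a co-stimulatory receptor; 0 to 2 counts untreated and 16 to 20 with DSS, adjusted p = 0.00253) and Cd4 (the co-receptor of helper T cells; 0 to 1 counts and 3 to 28, adjusted p = 0.0346). None of 15 passed in knockouts by edgeR, where 2 had an unadjusted p under 0.05, as did 15.9% of all genes, and DESeq2 called 1, Cd28. The interaction called none by edgeR or DESeq2, with 2 at an unadjusted p under 0.05, against 10.6% of all genes. In wild type 1 of the 2 calls was lost without untreated library 2 or 3, without DSS library 1 or 3 or without DSS-treated knockout library 3. Fitted values were above 0 for 14 of 15 genes in wild type and for 14 in knockouts, as for 50.9% and 51.9% of all genes. DSS raised 2.8% of all genes in wild type by edgeR. In the wild-type libraries alone 5 genes of the list passed the filter. The others were kept through the knockout libraries, so their wild-type values rest on few counts.

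Between genotypes, the same list had 1 of 15 genes higher in untreated knockouts by edgeR, Cd28 (adjusted p = 0.0216), where 3.48% of all genes passed, 1.72% as higher and 1.76% as lower. The call was lost without untreated knockout library 1 or 3. DESeq2 called 7, adding Cd4, Lck, Trac, Trbc1, Trbc2 and Ubash3a. By edgeR 13 had an unadjusted p under 0.05, as did 15.4% of all genes, and 7 had one under DSS, against 14.6%. Fitted values were above 0 for 14 of 15 untreated and 15 of 15 under DSS, as for 49.8% and 50.4% of all genes. The medians of the 15 were 2.39 and 1.46. Genes of the list kept only through the knockout libraries limit what these tests can show. Under DSS 1 of 15 was higher by edgeR, where 3.11% of all genes passed, 1.77% as higher and 1.34% as lower: Lck, the kinase that starts receptor signalling, with 16.2 ± 4.71 CPM in knockouts and 5.86 ± 1.85 CPM in wild type (SD, n = 3; log2 1.46, SE 0.37, adjusted p = 0.0473). DESeq2 called 4, and the Lck call was lost without any 1 of 9 libraries, each of the 3 wild-type DSS libraries and the 6 knockout libraries. Trac and Trbc2, the constant parts of the alpha and beta chains, stood at 0 to 5 and 1 to 9 counts in untreated wild type and at 15 to 33 and 20 to 31 counts in untreated knockouts.

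Among 14 tested genes of cytotoxic lymphocytes, Cd244a, a receptor of the SLAM family, passed in all 4 comparisons. It had 1 count in each untreated wild-type library, 7 to 20 counts with DSS, 12 to 19 in untreated knockouts and 35 to 72 in knockouts with DSS (edgeR adjusted p = 0.00657 for DSS in wild type, 0.0311 for DSS in knockouts, 0.00645 and 0.0221 between genotypes). Klrd1 and Klrc1, which encode the CD94 and NKG2A chains of an inhibitory receptor, were higher in untreated knockouts (adjusted p = 0.0231 and 0.0458). In untreated wild type they had 1 to 3 and 0 to 1 counts. Tbx21, the transcription factor T-bet, was higher in knockouts under DSS (0 to 1 counts against 12 to 22, adjusted p = 0.0197). Cd244a, Klrd1, Klrc1 and Tbx21 passed the filter only with the knockout libraries included, which limits what their tests between genotypes can show. DESeq2 called 6 genes of the list in untreated knockouts, where edgeR called 3, and 4 under DSS, where edgeR called 2. Of all genes, edgeR called 1.72% and 1.77% as higher in these comparisons. Within a genotype DSS raised 1 of the 14, Cd244a, against 2.8% of all genes in wild type and 1.88% in knockouts. The 24 listed genes summed to 4.17 to 17.6 CPM in untreated wild type, 20.2 to 28.8 with DSS, 34.3 to 44.1 in untreated knockouts and up to 84.3 in knockouts with DSS (65.9 ± 17.2; SD, n = 3). Natural killer cells use many of these genes too, and the part of each cell type was not tested.

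Of 15 tested genes of retention and homing, 2 were higher in knockouts in both conditions, against 1.72% of all genes untreated and 1.77% under DSS. Cd69, which holds lymphocytes in tissue, stood at 2.46 to 4.66 CPM in untreated wild type and 9.74 to 17.4 CPM in untreated knockouts (log2 1.90, SE 0.33, adjusted p = 0.00483), and at 3.47 to 5.22 against 17.5 to 19.3 CPM under DSS (log2 2.09, SE 0.33, adjusted p = 0.00252). Il2rb, the receptor chain shared by interleukins 2 and 15, had a log2 difference of 3.13 (SE 0.49, adjusted p = 0.0023) untreated and 2.49 (SE 0.43, adjusted p = 0.00546) under DSS. Neither passed for DSS within a genotype. Itgb7, the beta chain that pairs with Itgae, had 3.01 ± 1.53 CPM in untreated wild type and 5.01 ± 1.61 CPM in untreated knockouts (SD, n = 3) and did not pass (adjusted p = 0.604).

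In the RGS family to which Rgs1 belongs, 1 of 9 other tested genes was higher in untreated knockouts by edgeR, against 1.72% of all genes. Rgs16 stood at 0.328 to 2.01 CPM in untreated wild type and 4.04 to 6.96 CPM in untreated knockouts (log2 2.48, SE 0.56, adjusted p = 0.0242). Rgs2 had a log2 difference of 1.44 (SE 0.40, adjusted p = 0.0665), and Rgs3, far more abundant, one of -0.01 (SE 0.20, adjusted p = 0.995). Under DSS no other family member passed between genotypes by edgeR or DESeq2, and 2 had an unadjusted p under 0.05, against 14.6% of all genes.

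The products of 19 further tested genes meet or call intraepithelial lymphocytes. Epithelial cells are known to make them, but leukocytes also make several, among them Cxcl9, Cxcl10, Cxcl16 and Serpinb9, and the cells that gave these reads were not determined. In wild type DSS raised 6 and lowered 2, against 2.8% and 3.5% of all genes. Those that rose included the chemokines Cxcl9 (log2 2.62, SE 0.44, adjusted p = 0.00167) and Cxcl10 (2.36, SE 0.41, adjusted p = 0.0023), which draw CXCR3-bearing T cells, and Cxcl16 (1.27, SE 0.26, adjusted p = 0.00696). Tnfrsf14 (HVEM, the ligand of CD160 and BTLA; 1.60), Serpinb9 (a granzyme B inhibitor; 1.35) and Il18 (0.86) rose as well, with adjusted p from 0.0017 to 0.0458. Those that fell were Btnl1, a butyrophilin-like protein known to maintain gamma-delta intraepithelial lymphocytes, from 156 ± 7.95 to 75.0 ± 7.34 CPM (SD, n = 3; adjusted p = 7.94e-05), and H2-T3, the thymus leukemia antigen that binds CD8 alpha-alpha, from 49.4 ± 1.24 to 17.9 ± 6.25 CPM (adjusted p = 0.00108).

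In the knockouts 1 of the 19 passed for DSS by edgeR, Cxcl10 (log2 1.54, SE 0.35, adjusted p = 0.0219), and DESeq2 called 4. The interaction called none by edgeR, with 4 at an unadjusted p under 0.05, against 10.6% of all genes. DESeq2 called 1, Btnl1 (edgeR log2 0.71, SE 0.17, adjusted p = 0.0617). Untreated knockouts already differed from untreated wild type in 4 of the 19, against 3.48% of all genes. Cxcl10 was higher by 2.35 (SE 0.41, adjusted p = 0.00483), Cxcl9 by 1.70 (SE 0.44, adjusted p = 0.0489) and Serpinb9 by 0.99 (SE 0.23, adjusted p = 0.0262), and Btnl1 was lower (-0.48, SE 0.12, adjusted p = 0.0446). Cdh1, the E-cadherin that CD103 binds, had log2 values of 0.02 and 0.01 for DSS and -0.08 and -0.10 between genotypes (SE 0.09 each). Il15, a survival factor of these cells, stood at 16.3 ± 2.76, 14.9 ± 3.37, 12.5 ± 0.672 and 12.3 ± 1.01 CPM over the 4 groups and passed in none of the comparisons.

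**Figure D4:**
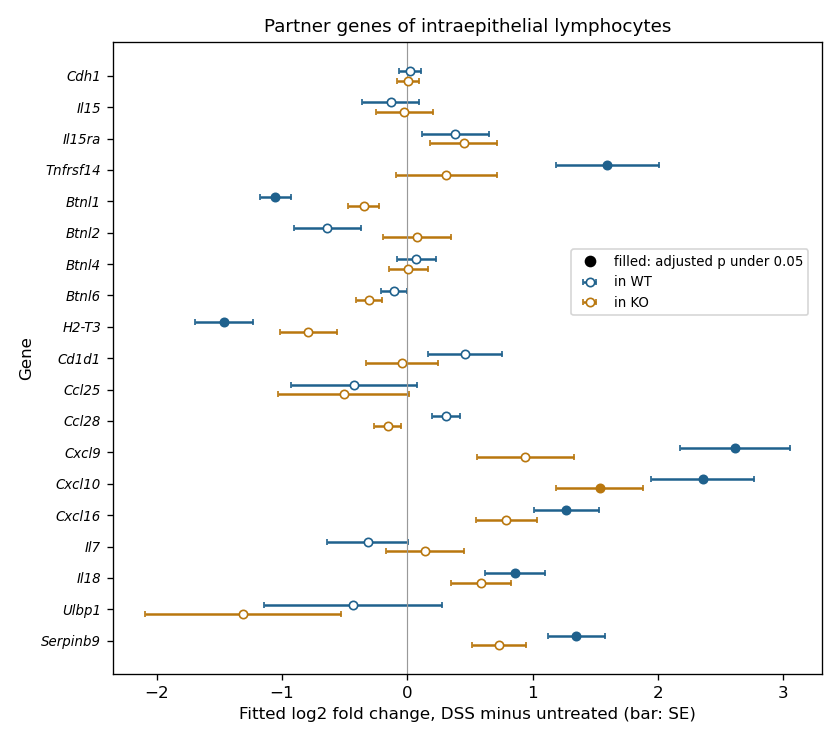
Fitted log2 fold change for DSS against untreated (x axis) with its standard error for 19 partner genes of intraepithelial lymphocytes (y axis) in wild type and knockouts, with filled points for an edgeR adjusted p under 0.05. Cxcl9 and Cxcl10 stand at 2.62 and 2.36 in wild type, Btnl1 and H2-T3 at -1.05 and -1.47, and Cxcl10 alone is filled in knockouts.

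Genes of leukocytes in general, which T cells also use, were higher in knockouts as well. Of 11 tested, 8 were higher in untreated knockouts by edgeR (9 by DESeq2) and 7 in knockouts under DSS (10 by DESeq2), against 1.72% and 1.77% of all genes, Ptprc among them (log2 1.57, SE 0.28, adjusted p = 0.00607, and 1.38, SE 0.28, adjusted p = 0.0134). DSS raised 2 of 11 in each genotype, Coro1a and Cd53 in wild type and Lcp1 and Lsp1 in knockouts. It raised 2.8% and 1.88% of all genes. The summed level of all 12 listed genes was 51.8 to 75.2 CPM in untreated wild type, 88.1 to 116 with DSS, 158 to 189 in untreated knockouts and 241 to 284 in knockouts with DSS. The part of leukocyte abundance in the differences of the 10 genes was not tested.

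Myeloid genes also differed. DSS raised 5 of 17 in wild type by edgeR (Csf1r, Adgre1, Cd14, Lyz2 and Ly6c2) and 1 in knockouts, against 2.8% and 1.88% of all genes. DESeq2 called 7 and 5. By edgeR 10 and 9 had an unadjusted p under 0.05, as did 17.6% and 15.9% of all genes. The median log2 fold changes of the 17 were 1.72 and 1.54. Lyz2, the lysozyme of macrophages, passed in all 4 comparisons (1.49 ± 0.762, 7.08 ± 2.57, 6.23 ± 1.12 and 25.5 ± 5.93 CPM; SD, n = 3). Cd14 made up most of the list's sum, with means of 71.5, 176, 115 and 136 CPM. The other 19 genes summed to 12.4 to 23.8 CPM in untreated wild type, 40.8 to 56.8 with DSS, 29.8 to 46.5 in untreated knockouts and 95.0 to 127 in knockouts with DSS. B cell genes were scarce: 3 of 15 in the files could be tested, and the list summed to at most 25.1 CPM. Ighm was higher in untreated knockouts (log2 3.91, SE 0.82, adjusted p = 0.0154), whereas Igha, the heavy chain of IgA plasma cells, was lower in knockouts under DSS (-2.42, SE 0.49, adjusted p = 0.0146). Jchain, the chain that joins IgA, had -1.01 untreated and -1.42 under DSS between genotypes and did not pass. The plasma cell list was mostly Sdc1, which epithelial cells also make (244 to 469 CPM), and Tnfrsf17 was at 0 throughout.

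Among the stromal genes, Tagln (group means of 7.81 to 11.1 CPM) and Pdgfrb (5.94 to 11.4 CPM) had the highest levels. Pdgfra, Kdr and Lum were at 0 in all 12 libraries. The list summed to 14.4 to 25.7 CPM in untreated wild type and 14.2 to 21.2 CPM in untreated knockouts. The T cell receptor list summed to 11.7 to 18.5 CPM in untreated wild type. None of the 4 tested stromal genes passed in any comparison by edgeR. DESeq2 called 1, Acta2, for DSS in wild type, and 1 gene had an unadjusted p under 0.05 there and none for DSS in knockouts or in untreated knockouts against wild type, and 1 each for knockouts against wild type under DSS and for the interaction. Of all genes, 10.6% to 17.6% had one in these comparisons. The innate lymphoid list summed to 112 to 125 CPM in untreated wild type and 116 to 130 CPM in untreated knockouts, and its genes Il22 and Il1rl1 were at 0 in all untreated wild-type libraries. Of its 6 tested genes 1 passed for DSS in wild type and 2 between genotypes under DSS, against 6.3% and 3.11% of all genes. Of 12 epithelial genes, DSS lowered 3 in wild type, and raised 1 and lowered 3 in knockouts. Of all genes, 6.3% and 3.92% passed in either direction. Between genotypes, Car1 and Muc2 were lower in untreated knockouts, and under DSS Vil1 was lower and Muc2 higher in knockouts. Of all genes, 3.48% and 3.11% passed in these comparisons. The Muc2 and Vil1 calls were lost with the replicate block. The epithelial list summed to 40100 to 49780 CPM in untreated wild type and 34480 to 37330 CPM in untreated knockouts, with no overlap. Car1 had means of 7068 and 2552 CPM in these groups and Muc2 of 4842 and 3618 CPM. The other 10 genes did not pass, Epcam among them (2891 and 2706 CPM), and 1 of the 12 had a fitted value above 0. The part of this difference in the levels of the 10 lymphocyte genes was not tested.

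**Figure D5:**
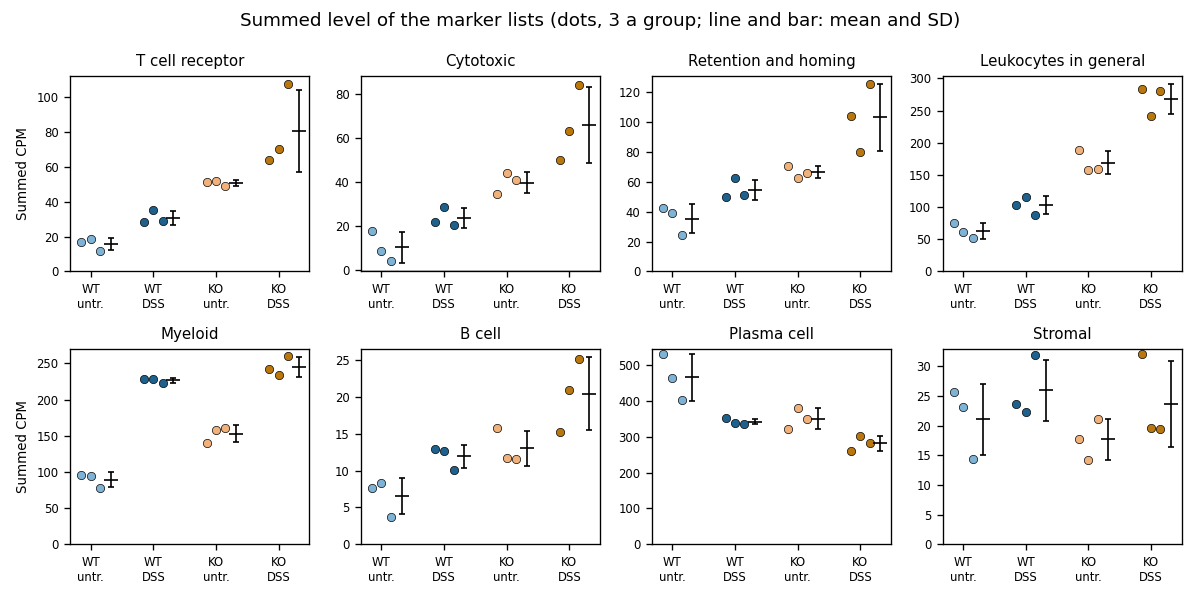
Summed level of 8 marker lists without the 10 genes (y axis, CPM scaled by TMM, a separate scale for each list) in the 4 groups (x axis), with dots for libraries and a line and bar for the mean and SD of 3. The T cell receptor list runs from 11.7 to 18.5 CPM in untreated wild type and from 64.0 to 107 CPM in knockouts with DSS, and the stromal list from 14.2 to 21.2 CPM in untreated knockouts and from 22.3 to 31.8 CPM in wild type with DSS.

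The genes whose log2 CPM over the 12 libraries was most like the mean of the 9 kept genes were Selenop (Pearson r = 0.966), Laptm5 (0.959), Il2rb (0.959), Coro1a (0.957), Rac2 (0.956) and Cd53 (0.949). These are descriptions over libraries that share groups and depth, and they carry no p. Of these 6, 4 are on the list of leukocytes in general and Il2rb on that of retention and homing. Selenop, which encodes a secreted selenium carrier, was far more abundant, at 293 ± 52.3, 402 ± 37.3, 495 ± 32.9 and 542 ± 22.8 CPM over the 4 groups in the same order (SD, n = 3).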

How the data were processed

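RNA from 12 samples (2 ng each, RNA integrity 7.2 to 9.2, median 8.8) was turned into cDNA by the SMART-seq 2 protocol, without molecular identifiers or strand marking, per the labels' protocols. The authors deposited raw counts of reads per gene for each sample. STAR 2.5.2b, featureCounts 1.5.0 and the builds GRCm38 and mm10 are named, with no roles, per the submitters' processing notes; the annotation is not given in the sources used here. Symbols and positions came from GENCODE M21 (GRCm38), matched without version for 46005 of 46517 identifiers, and 512 had no match. Promoters came from RefSeq (GRCm38.p6).

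The 10 genes, the gene lists and the tests were chosen with earlier results of these data known. Genes named from a list were, per comparison, up to 4 with the largest fold change among those that passed and up to 2 of the highest level among the others, the first 4 of each cell type list, and any partner gene of these lymphocytes. The 6 genes most like the 10 were ranked by Pearson r. Trac, Trbc1, Trbc2, Ubash3a, Arhgdib, Cytip, Vil1, Rgs2, Acta2, Pdgfra, Kdr, Lum, Il22 and Il1rl1 lie outside this rule and were named after their values were seen.

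Counts were tested with edgeR 4.0.16 in R 4.3.3 (filterByExpr with a minimum count of 10, which kept 12522 genes holding 99.8% of counts; TMM; 1 coefficient per group over all 12 samples; quasi-likelihood test; Benjamini-Hochberg adjustment over all genes kept; threshold 0.05). The script was checked on simulated counts. Trdc was removed by the filter. CPM values use the kept genes' library sizes. Floors of 3 counts use library totals without TMM and cover counting error only. Alternatives were RLE and library-total scaling, DESeq2 1.42.0, 2 other count filters, only the 2 groups compared, a replicate block, leaving out each library and, chosen after seeing the data, leaving out 2 libraries together.

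Samples share replicate numbers. Same-numbered samples deviated together for DSS in knockouts (r = 0.204, 0.106 and 0.127), which counts as paired. The main fit left this pairing out. For DSS in wild type the values were also above 0 but smaller on average, with the first near 0 (r = 0.014, 0.12 and 0.128). Between genotypes all values were below 0. The block changed no call of the listed genes for DSS in knockouts, while the calls over all genes went from 491 to 409. The block is a replicate term shared by all 4 groups, and so not the pairing within knockouts. The effect of leaving out that pairing was not tested.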

Additional observations from a re-analysis of the deposited data

Results flagged for a closer look

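The DSS change differed between genotypes, by the interaction term in edgeR, for 3 genes of the cell type lists, none of them among the 10 lymphocyte transcripts. Car1, a carbonic anhydrase of colonocytes, had an interaction of 1.69 on the log2 scale (SE 0.19, adjusted p = 0.000199): DSS lowered it in both genotypes, by a log2 change of -2.34 in wild type and -0.65 in knockouts. Cd14, a co-receptor for lipopolysaccharide, had -1.05 (SE 0.15, adjusted p = 0.00119), with 1.30 in wild type and 0.25 in knockouts. Muc2, the main secreted mucin of goblet cells, had 0.84 (SE 0.14, adjusted p = 0.00456), with -0.14 in wild type and 0.70 in knockouts.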

How the results depend on the processing

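For DSS in wild type, the count of called genes among the 8 tested, 1 with all samples, was 0 with no low-count filter, with the replicate block, with only the 2 groups compared and without untreated wild-type library 3 and DSS-treated knockout library 3 together, and 0 to 1 when 1 library was left out. It stayed 0 in every setting for DSS in knockouts and for the interaction. The median difference of untreated genotypes, 1.66, ranged from 1.35 to 2.37 over single libraries left out, the highest being without untreated wild-type library 1, where Itgae also had 2.37. The T cell receptor list was less stable. For untreated genotypes its 1 called gene became 2 with library totals, 7 by DESeq2, 9 with no filter, 0 with 2 groups, 0 without the 2 libraries and 0 to 3 with 1 library left out (3 without untreated wild-type library 1, 0 without untreated knockout library 1 or 3). For genotypes under DSS 1 became 4 by DESeq2, 2 with no filter, 0 with the replicate block, 2 with 2 groups, 0 without the 2 libraries and 0 to 3 with 1 left out (3 and 2 without untreated wild-type library 3 and 1, 0 without any of the 9 libraries of the other groups). For DSS in wild type 2 became 1 with the replicate block, with 2 groups and without the 2 libraries, and 1 to 2 with 1 left out. For DSS in knockouts 0 became 1 by DESeq2, with no filter, with 10 counts in 6 samples and with 2 groups, and 0 to 1 with 1 left out (1 without any untreated wild-type library). For the interaction 0 became 1 with no filter and 0 to 1 with 1 left out (1 without untreated wild-type library 1). Between genotypes the replicate block also took the general leukocyte genes from 7 to 4 under DSS (Arhgdib, Cytip and Lsp1 lost) and lost Klrd1 and Klrc1 untreated (adjusted p = 0.0568 and 0.0659), and it took the myeloid genes for DSS in wild type from 5 to 3. It lost Muc2 untreated (edgeR adjusted p = 0.0577) and, under DSS, Muc2 (0.0634), Vil1 (0.0602) and Id2 (0.0664). For DSS in wild type it lost Il18 (0.0782). The cause of these changes was not tested. Depth limits Trdc, at 0 to 7 counts a library.

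Signs turned for small values, given as log2 with their range over single libraries left out. For DSS in knockouts Cd3g (0.195, range -0.267 to 0.565) turned to -0.036 without untreated knockout library 1, -0.267 without DSS-treated knockout library 3 and -0.269 without the 2 libraries, and Cd7 (0.136, range -0.130 to 0.265) to -0.028, -0.130 and -0.130. For DSS in wild type Cd8a (0.382, range -0.077 to 0.812) turned without DSS-treated library 2. In the interaction Cd8a (0.219, range -0.208 to 0.673) turned without untreated wild-type library 2, DSS-treated wild-type library 3 or DSS-treated knockout library 3, and Itgae (-0.206, range -0.932 to 0.158) without untreated wild-type library 3, DSS-treated library 2 of either genotype or, at 0.101, the 2 libraries. Ccl5 between genotypes under DSS (-0.113, range -0.261 to 0.024) turned without DSS-treated wild-type library 3. The other values of single genes kept their sign, and Cd3e for DSS in wild type was the one call lost (in 12 settings).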
